A study of Mus musculus with 120 samples.

Results

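The genes described here are 33 genes for chaperones, folding enzymes and quality-control proteins of the endoplasmic reticulum (ER), together with the sensor ATF6, the sensor IRE1 (gene Ern1) and the factor XBP1 of the unfolded protein response. They were taken by gene symbol, with no filter on their values, from tables of 53656 genes in mouse soleus muscle and heart. The list and the tests were chosen with earlier results of these data known. All 33 symbols were found in both tables. After genes with low counts were removed, 32 were tested in soleus and 33 in heart. Derl3, a homologue of the ER membrane protein derlin-1, was the gene not tested in soleus, where 20 libraries held no count of it and the highest count was 6.

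Secreted and membrane proteins enter the ER through the SEC61 channel and are folded there by BiP (gene Hspa5), by GRP94 (Hsp90b1), by the lectin chaperones calnexin and calreticulin, and by protein disulfide isomerases. Proteins that fail to fold are passed back to the cytosol and degraded, a route called ER-associated degradation (ERAD). When unfolded proteins accumulate, IRE1, ATF6 and a further sensor, PERK, raise the output of chaperone and ERAD genes, with XBP1 and cleaved ATF6 acting as transcription factors. In striated muscle the ER is continuous with the sarcoplasmic reticulum, the calcium store of contraction.

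The mice came from 4 strains with mitochondrial defects on the C57BL/6Eij (Nnt+/+) background. ND5S204F mice carry m.12352C>T in ND5 and ND6P25L mice m.13997G>A in ND6, both genes for subunits of respiratory complex I. CO1V421A mice carry m.6589T>C in CO1, a gene for a subunit of complex IV, and ANT1-/- mice lack Slc25a4, which encodes the heart and muscle carrier that exchanges ADP and ATP across the inner mitochondrial membrane. These strains are called ND5, ND6, CO1 and ANT1 below, and the 3 with a mutation in mitochondrial DNA (mtDNA) are called the mtDNA strains. From 16 weeks of age, mice of each strain were either trained for 8 weeks, running 45 min every second day at 50% of maximal capacity, or only handled. Exercised mice were killed 6 days after the last session. Each of the 16 groups of strain, training and tissue held 6 libraries from 6 mice, so p-values measure the spread between mice. The control strain of the same background is not analysed here, so strains are compared with each other and no value is a difference from wild type.

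Libraries held 10205693 to 20748897 counts in soleus and 19653349 to 26512272 in heart. Levels of a gene are compared between libraries as CPM, its counts divided by the scaled library size. Differences are on the log2 scale with their standard error, and a gene was called where the p-value of edgeR's quasi-likelihood test, adjusted over all genes tested, was under 0.05. For fits with other settings, counts of members at an unadjusted p under 0.05 have no count over all genes beside them. Such counts are not read as particular to the members. Slc25a4 was at 11 to 22.1 CPM in the 6 non-exercised ANT1 soleus libraries and at 2170 to 3603 CPM in the other 18. In heart it was at 2.24 to 6.13 CPM in non-exercised ANT1 mice. Counts from mtDNA made up 35.8% to 47.6% of the non-exercised ANT1 soleus libraries and 12.9% to 23% of the others. The heart library of mouse B80, of the non-exercised ND5 group, stood apart. Its summed CPM of 6 heart-defining markers was 4639, against 26860 or more in every other heart library. Its red cell markers summed to 116227 CPM, which was not particular to it. A non-exercised ND6 heart reached 131944 CPM and an exercised ND6 heart 104892 CPM. Its code is also that of an exercised ND5 mouse in soleus, so that the labels of the code disagree on training. The main results that rest on this library are given with and without it. The tissue is bulk, so fewer cells of a type and less RNA per cell cannot be told apart.

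The promoters of 27 of the 33 genes were in the RefSeq table (build GRCm38.p6), as windows from 250 bases before to 50 bases after the annotated start. They were read for 3 published response elements on both strands: the ER stress response element ERSE (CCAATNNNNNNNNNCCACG), ERSE-II (ATTGGNCCACG) and the unfolded protein response element UPRE (TGACGTGG). ERSE was found in 9 of the 27 genes (33.3%) and in 37 of all 27025 genes in the table (0.137%). ERSE-II was found in Herpud1 and in Dnajb11, past the start of the latter, that is 7.41% of the members against 0.0444% of all genes. UPRE was found in Txndc5 and Txndc11, again 7.41%, against 0.714% of all genes. The 33 genes were chosen as genes of the ER and of the response that these elements are named for. The larger shares among them are therefore a description and not a test. The ERSE and ERSE-II matches upstream of a start are printed below, because they recur in these promoters. The UPRE matches are not printed. Each stretch is written 5′ to 3′ on the strand of its gene, with the element in capitals. Where the element lies on the opposite strand the capitals read as its reverse complement.
Hspa5, chr2:34772017-34772051, plus strand: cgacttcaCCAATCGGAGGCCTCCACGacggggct
Dnajc3, chr14:118937819-118937853, plus strand: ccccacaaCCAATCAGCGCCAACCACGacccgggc
Pdia6, chr12:17266483-17266517, plus strand: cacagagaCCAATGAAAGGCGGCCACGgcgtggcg
Syvn1, chr19:6046524-6046558, plus strand: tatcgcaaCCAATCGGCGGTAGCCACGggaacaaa
Canx, chr11:50325792-50325826, minus strand: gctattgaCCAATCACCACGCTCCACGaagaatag
Calr, chr8:84847067-84847101, minus strand: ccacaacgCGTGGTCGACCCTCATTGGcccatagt
Creld2, chr15:88819512-88819546, plus strand: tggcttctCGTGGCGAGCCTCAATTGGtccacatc
Derl3, chr10:75893234-75893268, plus strand: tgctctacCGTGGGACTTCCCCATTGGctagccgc
Herpud1, chr8:94386369-94386395, plus strand: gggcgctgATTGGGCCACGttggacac
Hsp90b1, chr10:86705525-86705664, minus strand: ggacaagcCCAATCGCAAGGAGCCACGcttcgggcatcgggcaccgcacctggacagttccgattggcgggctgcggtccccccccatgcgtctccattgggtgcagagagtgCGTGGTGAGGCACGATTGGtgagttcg
Hsp90b1 held the element at 2 places. The ERSE of Hspa5 ended 47 bases before the start, that of Syvn1 26 bases and that of Calr 144 bases. A match is a description of letters and was not tested for function here.

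Per length of transcript, Hspa5 was the most abundant of the 33 genes in both tissues, with a mean over the 8 groups of 118 FPKM (fragments per kilobase of transcript, scaled for depth, as deposited) in soleus and 243 FPKM in heart. In soleus it was followed by the disulfide isomerase P4hb (65.5 FPKM), calreticulin (Calr, 58), Hsp90b1 (57.7) and the ERAD adaptor Herpud1 (57.6). These last 3 genes lay within the range of each other's group means, so their order carries no weight. In heart Herpud1 came next after Hspa5 with 181 FPKM, then Hsp90b1 (118) and Calr (113). The sensors were far lower. Atf6 was at 8.73 FPKM in soleus and 20.4 in heart, and Ern1 at 3.36 and 3.20 FPKM. Derl3 was the lowest gene in both tissues, at 0.158 and 0.293 FPKM.

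**Figure D1:**
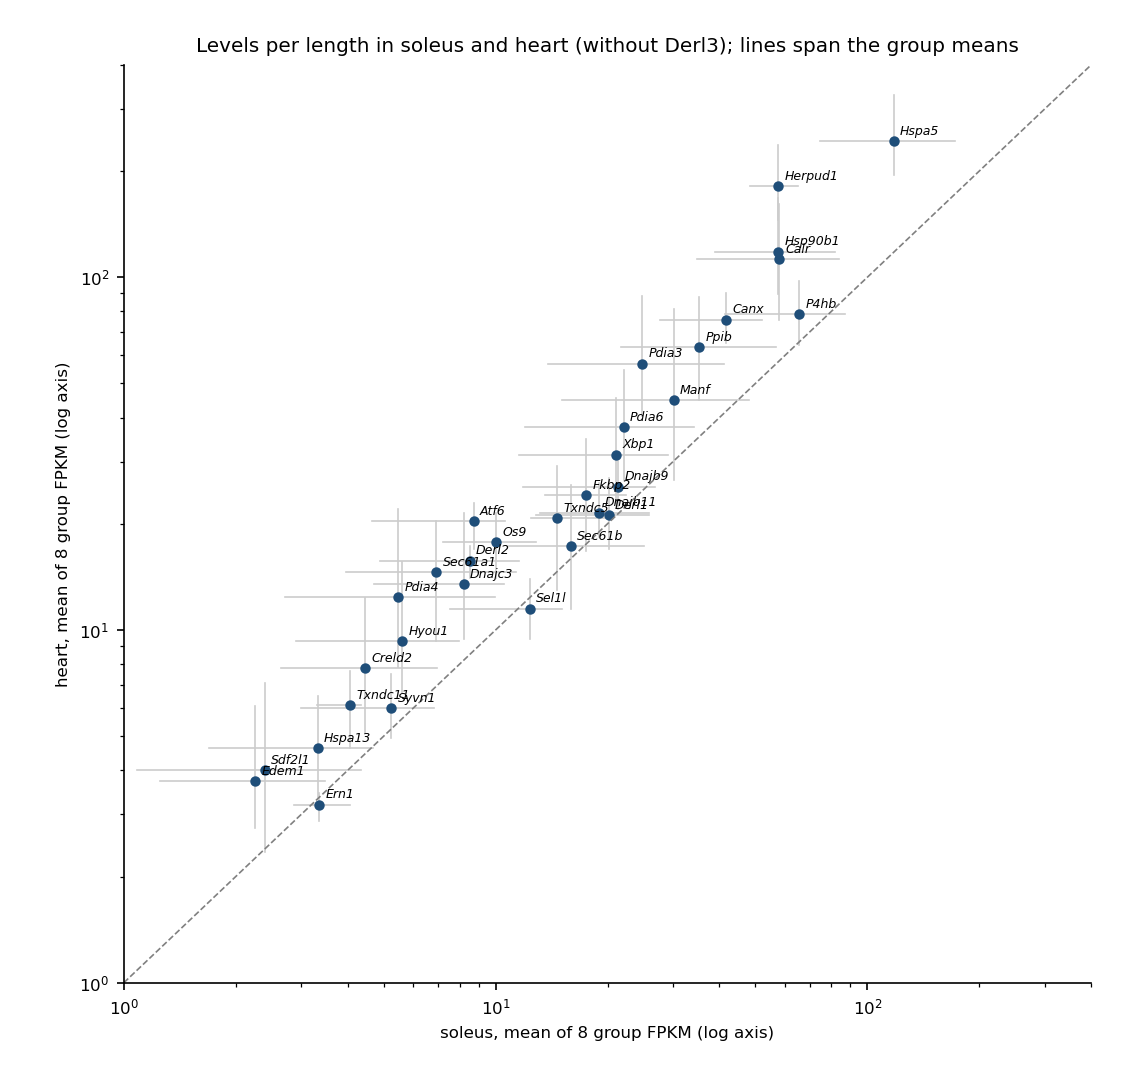
Mean of the 8 group means of deposited FPKM in soleus (x axis, log scale) and heart (y axis, log scale) for 32 of the 33 genes, leaving out Derl3. Each point is a gene, the lines span its lowest to highest group mean, and the dashed line marks equal levels; most points lie above it, with Hspa5 at 118 FPKM in soleus and 243 FPKM in heart.

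Soleus and heart differed in the CPM of most of these genes. Of the 32 genes tested over both tissues, 3 were higher in soleus (40.5% of all genes were) and 25 were lower (46.3% of all genes), with a median log2 difference of -0.49 over the 32. Sel1l, which recruits substrates to the ERAD ligase, was 0.29 ± 0.03 higher in soleus on the log2 scale (SE, 48 libraries per tissue, adjusted p = 2.44e-15), Ern1 0.25 ± 0.07 and Derl1 0.15 ± 0.03. The largest deficits in soleus were those of Herpud1 (-1.35 ± 0.08), Atf6 (-1.07 ± 0.07) and Pdia3 (-1.0 ± 0.05), the isomerase that works with the lectin chaperones. Dnajb11, P4hb, Syvn1 and Sec61b did not pass the test. Among pathway genes outside the 33, 14 of 17 collagen-folding genes of the ER were lower in soleus and 2 were higher, whereas 12 of 18 other ERAD genes were higher and 4 lower. Atf4, a factor downstream of PERK, was higher in soleus by 1.24 ± 0.05.

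In non-exercised soleus, ANT1 mice had lower mRNA than the mean of the mtDNA strains for most of these genes. Against ND6 or CO1 alone fewer members were called, as given below. Of the 32 tested, 19 were lower (25.4% of all genes tested were) and 3 were higher (22.4% of all genes). The median log2 difference was -0.26 over the 32 and -0.04 over all 13935 genes. In the exercised mice 12 were lower (22.4% of all genes) and 4 higher (21.1%), with medians of -0.16 and -0.02. The 2 arms hold different mice. Called in the same direction in each were 15 genes, that is 68.2% of the members called at rest and 93.8% of those called after training. Of all genes tested 36.3% were called in the same direction in both arms, which is 76.1% of the genes called at rest and 83.4% of those called after training.

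**Figure D2:**
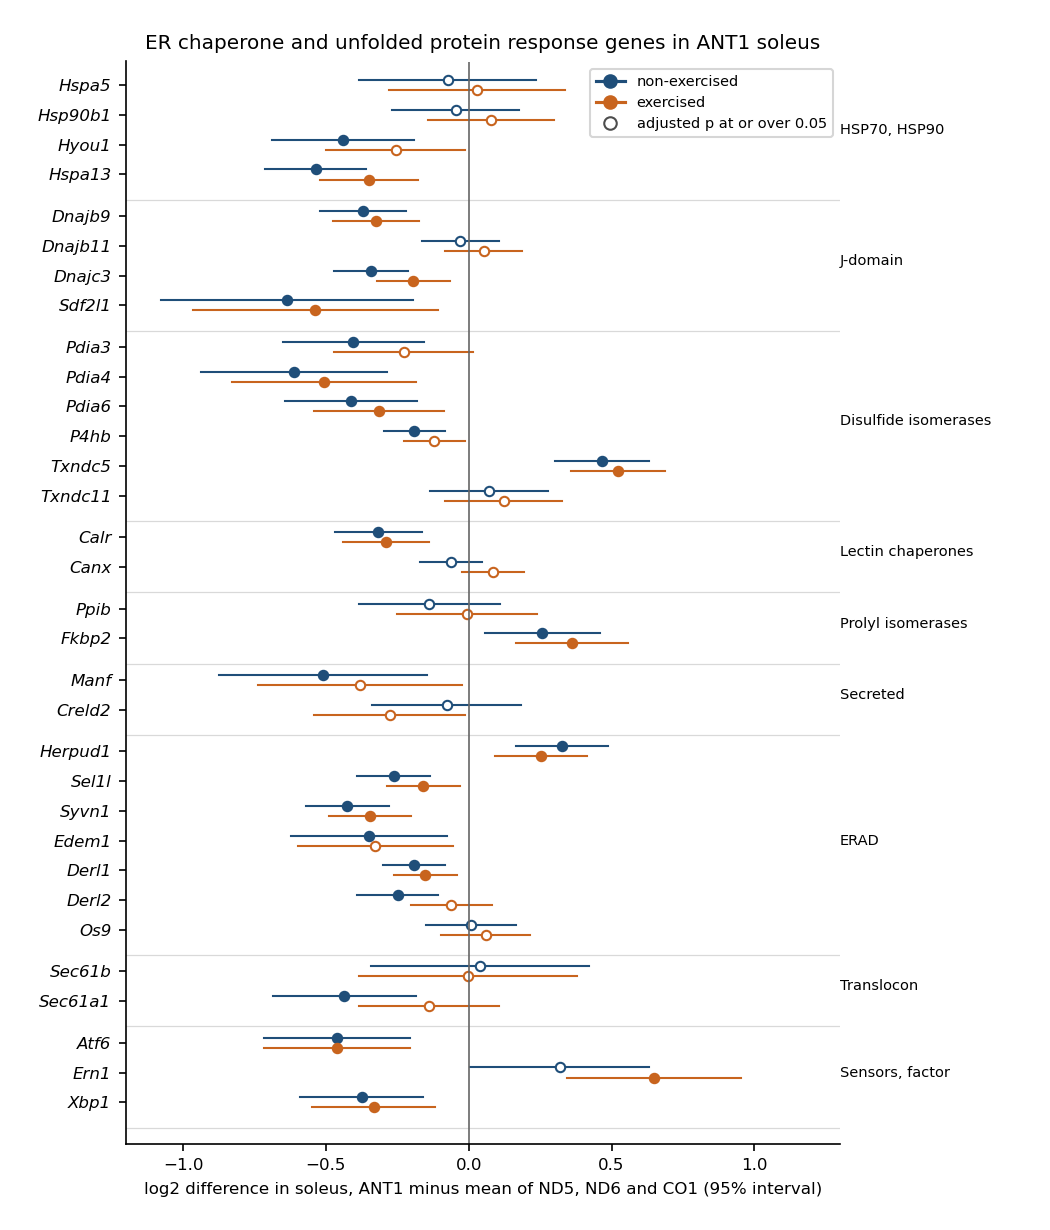
Log2 difference in soleus, ANT1 minus the mean of ND5, ND6 and CO1 (x axis), for 32 genes grouped by role (y axis), in non-exercised and exercised mice; bars are 95% intervals and open points have an adjusted p at or over 0.05. Most filled points lie left of 0, and Txndc5, Fkbp2 and Herpud1 lie right of it in both arms.

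Of the 4 chaperones and exchange factors of the HSP70 and HSP90 families, 2 were lower at rest. Hspa5 was at 167, 217 and 245 CPM (lowest, median and highest) in the 6 non-exercised ANT1 mice and at 143, 204 and 398 CPM in the 18 mtDNA mice. The ranges overlapped throughout, and the log2 difference of -0.07 ± 0.16 had a 95% interval from -0.38 to 0.24. Hsp90b1 was likewise not called (-0.05 ± 0.11). Hspa13, a microsomal HSP70 relative, was lower. It stood at 7.77, 8.60 and 10.8 CPM in ANT1 against 10.4, 12.9 and 18.5 CPM, and 5 of the 6 ANT1 libraries were below all 18 others. Its log2 difference was -0.54 ± 0.09 (adjusted p = 3.42e-06, edgeR) at rest and -0.35 ± 0.09 after training. Hyou1, the nucleotide exchange factor of BiP, was lower at rest (-0.44 ± 0.13, adjusted p = 0.00393), and its exercised difference of -0.26 ± 0.12 did not pass the test.

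Of the J-domain proteins, which bring substrates to BiP, Dnajb9 was at 27.9, 36.5 and 42.7 CPM in non-exercised ANT1 mice and at 38.6, 47.7 and 55 CPM in the mtDNA strains. Again 5 of 6 ANT1 libraries were below all 18. The difference was -0.37 ± 0.08 (adjusted p = 0.000105, edgeR) and -0.32 ± 0.08 in the exercised arm. Dnajc3, known as P58IPK, fell by 0.34 ± 0.07 and by 0.19 ± 0.07 in the 2 arms. Sdf2l1, a partner of Dnajb11, was lower in both (-0.64 ± 0.22 and -0.54 ± 0.22) from levels of only 0.844 to 3.77 CPM. Dnajb11 itself was not called, at -0.03 ± 0.07 and 0.05 ± 0.07.

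The disulfide isomerase family was split. Pdia3, Pdia4, Pdia6 and P4hb were lower at rest, Pdia4 the most with -0.61 ± 0.17 (adjusted p = 0.0023, edgeR), from 6.99, 8.12 and 9.18 CPM in ANT1 against 7.87, 11.3 and 29.1 CPM. Txndc5, an isomerase with thioredoxin domains, was higher instead. Its levels were 42.3, 47.1 and 54.7 CPM in non-exercised ANT1 mice and 26.0, 33.1 and 56.2 CPM in the mtDNA strains. In the exercised mice the groups did not overlap, with 43.4 to 53.8 CPM in ANT1 and 27.8 to 42.8 CPM in the other 18. It was the only 1 of the 32 genes tested in which ANT1 lay wholly above the other strains there (5.19% of all genes did). Its log2 differences were 0.47 ± 0.08 (adjusted p = 1.24e-05, edgeR) and 0.52 ± 0.08 (adjusted p = 1.74e-06). Txndc11 did not pass the test in either arm.

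Calr, the soluble lectin chaperone that also buffers calcium, was at 70.2, 82.8 and 99.1 CPM against 86.5, 101 and 146 CPM at rest, with 4 of 6 ANT1 libraries below all others. It was lower, at a log2 difference of -0.32 ± 0.08 and, in the exercised arm, of -0.29 ± 0.08. Canx, its membrane-bound relative, was not called (-0.06 ± 0.06 and 0.08 ± 0.06). Of the prolyl isomerases, Fkbp2 was higher in both arms (0.26 ± 0.10 and 0.36 ± 0.10) and Ppib, which also acts on collagen, was not called. Of the secreted proteins, Manf was lower at rest (-0.51 ± 0.19, adjusted p = 0.022, edgeR) and Creld2 was not called.

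ERAD genes also moved in opposite directions. Syvn1, the ligase HRD1 that ubiquitinates ERAD substrates, was at 11.1, 12.4 and 14.1 CPM in non-exercised ANT1 mice and at 14.0, 16.8 and 20.2 CPM in the mtDNA strains. Only the highest ANT1 library reached the range of the others. Syvn1 was lower, at a log2 difference of -0.43 ± 0.07 (adjusted p = 7.26e-06, edgeR) and, after training, of -0.35 ± 0.07 (adjusted p = 0.00017). Its partner Sel1l and the channel component Derl1 were lower in both arms, Edem1 and Derl2 were lower at rest and not called after training, and Os9, a lectin that delivers glycoproteins to the ligase, was not called in either arm. Herpud1, the adaptor that binds the same ligase, was higher, with 100, 105 and 132 CPM against 56.6, 87.8 and 109 CPM, and differences of 0.33 ± 0.08 and 0.25 ± 0.08. In the translocon, the channel subunit Sec61a1 was lower at rest (-0.44 ± 0.13) and Sec61b was not called.

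Among the sensors, Atf6 was lower to the same extent in the 2 arms (-0.46 ± 0.13 in each) and Xbp1 at -0.37 ± 0.11 and -0.33 ± 0.11. Xbp1 was at 22.4, 28.4 and 34.2 CPM in non-exercised ANT1 mice and at 30.7, 35.6 and 46.3 CPM in the others, with 5 of 6 ANT1 libraries below all 18. Ern1, whose product IRE1 splices Xbp1 mRNA, went the other way. It was at 14.5, 27.7 and 45.2 CPM in exercised ANT1 mice and at 14.5, 18.6 and 25.3 CPM in the exercised mtDNA strains, where 4 ANT1 libraries were above all others and 1 was below. It rose by 0.65 ± 0.16 in that arm (adjusted p = 0.000721, edgeR), and its resting difference of 0.32 ± 0.16 did not pass the test (adjusted p = 0.0979). The gene counts do not separate spliced from unspliced Xbp1 mRNA.

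**Figure D3:**
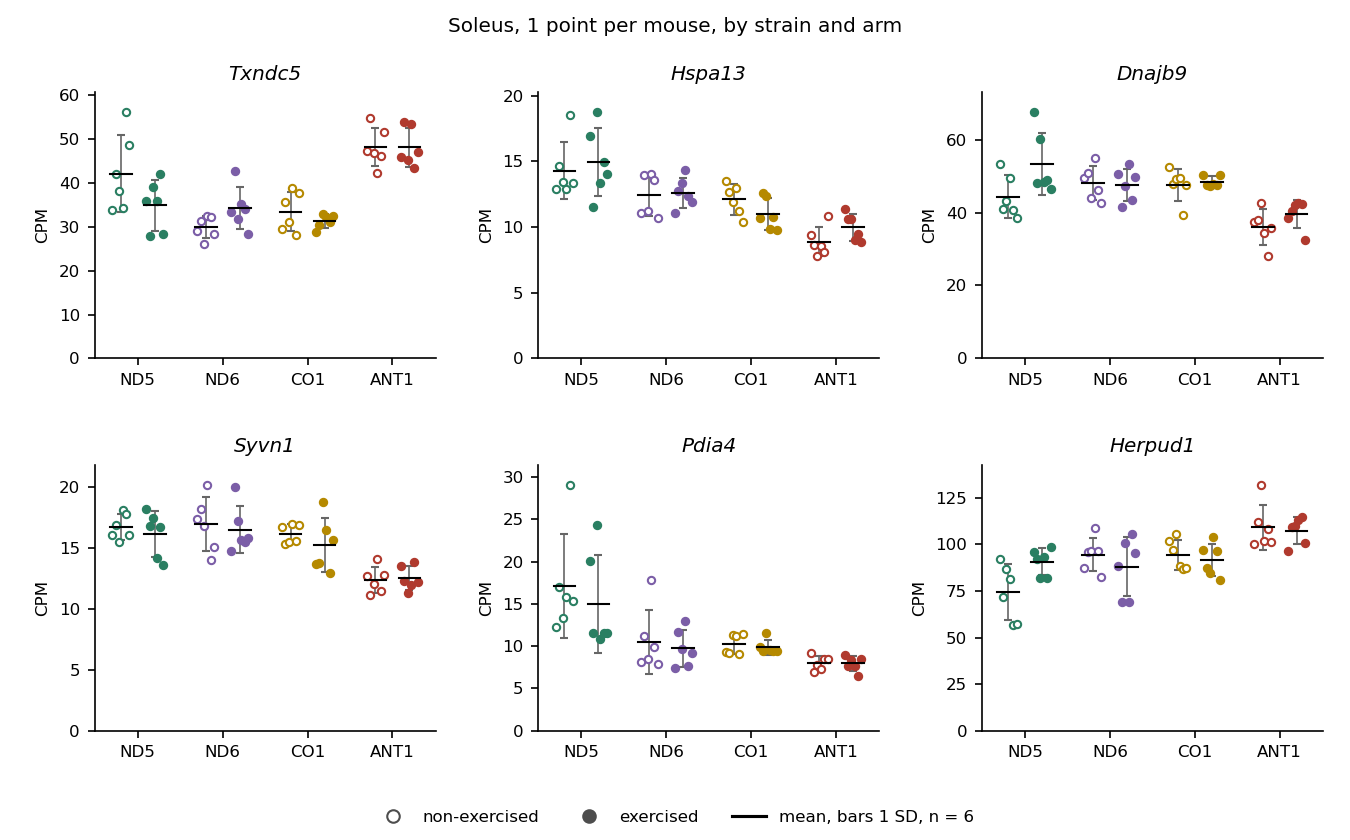
CPM in soleus (y axes, from 0) of Txndc5, Hspa13, Dnajb9, Syvn1, Pdia4 and Herpud1 by strain (x axes); each point is 1 mouse, open for non-exercised and filled for exercised, and the lines give the mean with 1 SD of 6 mice. ANT1 points sit high for Txndc5 (42.3 to 54.7 CPM at rest) and low for Syvn1 (11.1 to 14.1 CPM at rest), and Pdia4 and Txndc5 are spread most widely in non-exercised ND5.

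Against each mtDNA strain alone the calls varied. Called in the same direction against ND5, ND6 and CO1 were 6 of 32 members at rest (Hspa13, Dnajb9, Dnajc3, Sel1l, Syvn1 and Atf6; 23.8% of all genes) and 4 after training (Dnajb9, Txndc5, Syvn1 and Ern1; 24.5% of all genes). The members' shares were no larger than those of all genes. Syvn1 was lower, at a log2 difference of -0.44, -0.45 and -0.39 against ND5, ND6 and CO1 at rest. Pdia4, by contrast, was lower, at a log2 difference of -1.10 against ND5 (adjusted p = 9.39e-06, edgeR), and its differences of -0.38 against ND6 and -0.35 against CO1 did not pass the test. Txndc5 was higher by 0.69 and 0.52 against ND6 and CO1 at rest, and its 0.19 against ND5 did not pass.

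Markers of connective tissue cells moved with these comparisons. Of 12 matrix fibroblast markers 11 were lower in ANT1 soleus and none higher in either arm, and their summed level was 416 to 958 CPM in non-exercised ANT1 mice, 1386 to 5850 CPM in ND5, 651 to 1438 CPM in ND6 and 753 to 2836 CPM in CO1. Of 10 macrophage markers 8 were lower at rest. With the matrix marker score added to the fit as a covariate, 14 of the 32 members were called at rest, 4 higher and 10 lower (33.5% of all genes in either direction), and 12 in the exercised arm, 4 higher and 8 lower (32.5%). Txndc5, Fkbp2, Hspa13, Dnajb9, Syvn1, Calr, Atf6 and Xbp1 were among those called in both arms of that fit. Txndc5 was then 0.68 higher and Syvn1 lower (-0.30) at rest. At rest 10 members were no longer called, namely Sdf2l1 (-0.66), Pdia3 (-0.13), Pdia4 (-0.45), Pdia6 (-0.34), P4hb (-0.15), Manf (-0.41), Herpud1 (0.13), Edem1 (-0.16), Derl2 (-0.20) and Sec61a1 (-0.15), with their log2 differences in that fit. All kept the sign they had without the covariate. In the exercised arm Ern1 was among those no longer called (0.40), while Ppib and Os9 were called higher, by 0.35 and 0.26 at rest.

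Other genes of the same pathways were not uniform in non-exercised ANT1 soleus. Of 17 collagen-folding genes 14 were lower and none higher, P3h2, a collagen prolyl hydroxylase, at -1.51 ± 0.19. Of 12 genes of N-glycosylation and glucose trimming 6 were lower, among them Stt3a, a catalytic subunit of oligosaccharyltransferase (-0.46 ± 0.10). Of 19 other regulators and cargo genes of the response 9 were lower and 1 higher. Mbtps1 and Mbtps2, the proteases that cleave ATF6 in the Golgi, were lower, at a log2 difference of -0.35 ± 0.05 and -0.38 ± 0.07. Of 18 other ERAD genes 5 were higher and 7 lower, with the ligase Rnf5 at 0.55 ± 0.07 and Vimp, a selenoprotein of the ER membrane, at -0.93 ± 0.12. Among 8 genes of the sarcoplasmic reticulum, Casq1, the calsequestrin of fast fibres, was lower (-0.90 ± 0.08), alongside 4 of 6 fast fibre markers that were lower.

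Among the mtDNA strains, ND5 had the highest soleus levels. By group means, 17 of the 32 genes were highest in non-exercised ND5 and 8 more in exercised ND5. Against non-exercised ND6, 13 were higher in ND5 (9.97% of all genes) and 1 was lower (4.51%), with a median log2 difference of 0.26 against 0.00 over all genes. ND5 lay wholly above ND6 for P4hb and Txndc5 (1.39% of all genes did) and wholly below it for no member (0.775% of all genes). The 13 genes included 5 of the 6 disulfide isomerases, both translocon subunits, Calr, Ppib, Creld2, Dnajb11, Edem1 and Derl2. Pdia3 was at 60.2, 75 and 130 CPM in ND5 and at 45.1, 49.7 and 73 CPM in ND6, a difference of 0.62 ± 0.15 (adjusted p = 0.00655, edgeR). Txndc5 was at 33.8, 40.0 and 56.2 CPM against 26.0, 30.2 and 32.5 CPM (0.50 ± 0.11, adjusted p = 0.00384). Herpud1, at 56.6, 76.4 and 91.8 CPM against 82.7, 96 and 109 CPM, was the gene that was lower (-0.35 ± 0.10, adjusted p = 0.0179).

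The number of calls depended on single libraries and on the matrix markers. Mouse B70 was the highest of the ND5 group for 22 of the 33 genes, and its median deviation from the group mean over 32 genes was 0.27 on the log2 scale. Without B70, 1 member and 442 genes in all were called, without B85 there were 6 members and 880 genes, and without B10 17 members and 3293 genes, against 14 members and 2017 genes with every library. Of 12 matrix markers 9, of 10 macrophage markers 8 and of 4 markers of embryonic and regenerating muscle 4 were higher in ND5, the last summing to 59.8 to 2270 CPM in ND5 and 44.6 to 169 CPM in ND6. With the matrix score as a covariate no member was called in edgeR's test, nor any gene (0% of all genes), and 15 of 32 members had an unadjusted p under 0.05. The log2 differences of all 14 called members kept their sign in that fit. For the 13 that were higher the median was 0.50 without the covariate and 0.35 with it. Creld2 stayed at 0.62, Calr was at 0.35 and Pdia4 at 0.57, whereas Ppib went from 0.46 to 0.00271. Collagen-folding genes moved alongside, 12 of 17 higher, with Serpinh1, the collagen chaperone HSP47, at 1.33 ± 0.26, and Kdelr2 and Kdelr3, receptors that retrieve ER proteins, were higher by 0.53 ± 0.13 and 1.90 ± 0.42. Among exercised mice the same comparison called no member in either direction with edgeR (0% of all genes higher and 0% lower), and 12 of 32 had an unadjusted p under 0.05 (793 of all 13935 genes).

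ND5 and CO1 did not differ in soleus by the adjusted test, where 0 of 32 members and 0% of all genes were called by edgeR. At an unadjusted p under 0.05 there were 19 members (3080 of all 13935 genes). DESeq2 called 6 members. Its count over all genes is not given here, so these 6 are not read as particular to the members. The largest estimates included Sdf2l1 at 0.88 ± 0.24 (adjusted p = 0.0634, edgeR) and Pdia4 at 0.74 ± 0.19 (adjusted p = 0.0601). Leaving out single libraries raised the count, to 15 members without B10 (1685 genes in all) and 11 without E64 (744 genes). It was 4 to 6 without E98, B69, B3, B47 or I59 (163 to 520 genes). ND6 and CO1 were closest. No member was called by edgeR or DESeq2 (0% of all genes by edgeR), none had an unadjusted p under 0.05 (286 of all 13935 genes did), and the median difference was -0.01.

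In heart the non-exercised ND5 group had the highest levels of most genes, and its calls were against CO1. By group means 20 of the 33 genes were highest in non-exercised ND5, or 17 without B80, and 18 lowest in non-exercised CO1. Exercised ND5 was highest for 1 gene and exercised ND6 for 7, or 11 without B80. Between non-exercised ND5 and non-exercised CO1, 19 genes were higher in ND5 (9.27% of all genes) and 1 was lower (1.92%). The median log2 difference was 0.48 over the 33 genes and 0.04 over all 15723. In 9 genes every ND5 library was above every CO1 library (0.89% of all genes), namely Hsp90b1, Calr, Pdia3, Pdia4, Pdia6, Xbp1, Hyou1, Manf and Sdf2l1. None lay wholly below (1.16% of all genes). Manf, a secreted ER protein, was at 27.1, 34.5 and 61.4 CPM in ND5 and at 13.7, 16.5 and 20.4 CPM in CO1, a difference of 1.18 ± 0.20 (adjusted p = 0.00222, edgeR). Hyou1 was at 45.9, 50.1 and 63.8 CPM against 24.7, 29.2 and 35.5 CPM (0.83 ± 0.14, adjusted p = 0.00222). These 2 genes were separated by a clear gap between the groups.

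The isomerases and lectins followed. Pdia3 was at 140, 168 and 276 CPM against 97.0, 115 and 125 CPM (0.73 ± 0.13, adjusted p = 0.00325, edgeR), and Pdia4 at 25.4, 32.1 and 64.5 CPM against 12.2, 17.8 and 21.9 CPM (1.13 ± 0.22). Calr was at 216, 242 and 279 CPM against 159, 185 and 209 CPM (0.37 ± 0.10), whereas Canx showed no difference that passed the test (0.01 ± 0.10). Xbp1 was higher by 0.67 ± 0.14 (adjusted p = 0.0118), from 52.9, 60.4 and 95.6 CPM against 35.6, 42.5 and 47 CPM. Atf6 and Ern1 were not called. Hspa5 was not called either, at 469, 544 and 805 CPM against 457, 487 and 519 CPM, with a 95% interval of the log2 difference from -0.07 to 0.57. Herpud1, with an ERSE-II in the stretch printed above, was the gene that was lower, at 81.4, 216 and 284 CPM against 195, 370 and 581 CPM (-0.93 ± 0.28, adjusted p = 0.03).

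**Figure D4:**
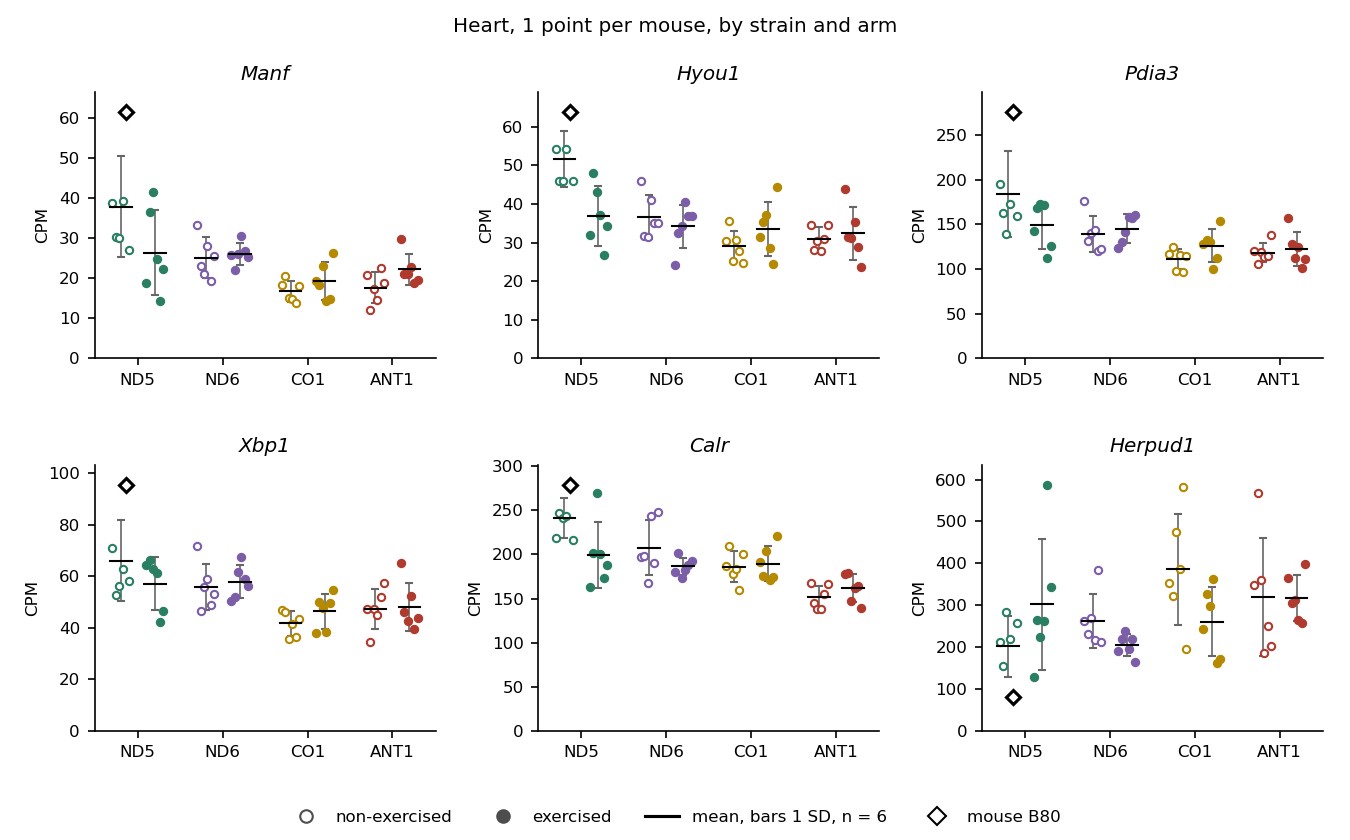
CPM in heart (y axes, from 0) of Manf, Hyou1, Pdia3, Xbp1, Calr and Herpud1 by strain (x axes); each point is 1 mouse, open for non-exercised and filled for exercised, the lines give the mean with 1 SD of 6 mice, and the diamond is mouse B80. B80 is the highest library of its group for the first 5 genes (61.4 CPM for Manf) and the lowest for Herpud1 (81.4 CPM).

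The heart difference depended in part on mouse B80. Over 32 genes its median deviation from the ND5 group mean was 0.37 on the log2 scale, with 26 above the mean. Without it 3 members were called, and 5 of 15812 genes in all (0.0316% of all genes, either direction), while 23 of 33 members had an unadjusted p under 0.05. All 20 members kept their sign, and the median over the 19 higher ones was 0.47 without B80 and 0.69 with it. The 3 were Hyou1 (0.75, adjusted p = 0.022, edgeR), Manf (0.97, adjusted p = 0.0288) and Pdia3 (0.57, adjusted p = 0.0312). The same 9 genes still had every ND5 library above every CO1 library (1.11% of all genes), and none had every ND5 library below (1.27%). Without E69, a CO1 library, 12 members and 548 genes in all were called.

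Other cell types moved with the heart comparison as well. Of 12 matrix markers 11 were higher in ND5, summing to 887, 1314 and 4454 CPM against 699, 847 and 1001 CPM in CO1, where the highest is B80. Of 6 adipocyte markers 5 were higher and of 6 atrial markers 2, the latter summing to 40.0 to 15773 CPM in ND5 and 78.1 to 635 CPM in CO1. The adipocyte markers summed to 384, 427 and 3360 CPM in ND5 and to 413, 477 and 557 CPM in CO1, so the ND5 median was the lower. None of the 9 plasma and B cell markers tested was called. With the matrix score as a covariate no member and no gene was called by edgeR (0% of all genes), with 12 of 33 members at an unadjusted p under 0.05 and 16 of the 20 called members keeping their sign. The median of the 19 higher ones was then 0.23. With the atrial score Hyou1, Pdia3 and Manf were called (0.0445% of all genes, either direction), and 23 of 33 had an unadjusted p under 0.05. Beyond the 33 genes, 7 of 12 N-glycosylation genes were higher, with Ostc at 0.47 ± 0.11 and Ddost at 0.40 ± 0.10, both of the oligosaccharyltransferase. Serp1, which protects proteins at the translocon under stress, was higher by 0.95 ± 0.24. The counts of markers and of genes beyond the 33 are from the fit with all libraries. Without B80 only 5 genes in all were called, and 3 of them were members.

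**Figure D5:**
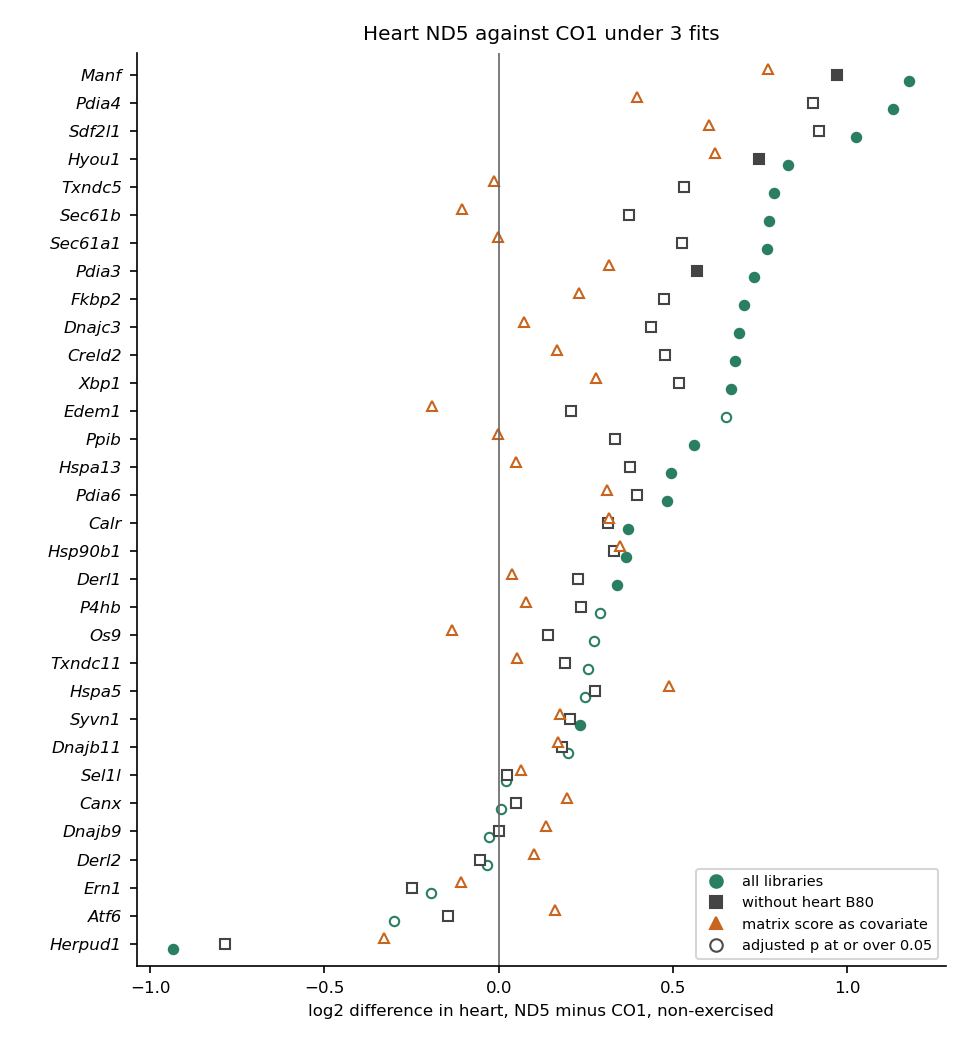
Log2 difference in heart, non-exercised ND5 minus CO1 (x axis), for 32 genes (y axis, without Derl3) under 3 fits: all libraries, without B80, and with the matrix score as a covariate; open points have an adjusted p at or over 0.05. Without B80 the filled points are Manf (0.97), Hyou1 (0.75) and Pdia3 (0.57), and none is filled with the covariate.

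Between exercised ND5 and CO1 hearts no member was called by edgeR (0% of all genes higher and 0% lower), with 8 of 33 at an unadjusted p under 0.05 (1841 of all 15723 genes). A difference in training response between strains was not called for any member either. Without B80, 1 member had an unadjusted p under 0.05 in that test. With all libraries the unadjusted p was 0.00692 for Hyou1 and 0.0202 for Manf, with adjusted p of 0.892 or more for all 33 in edgeR's test. The other resting pairs of mtDNA strains called no member in heart with edgeR or DESeq2. ND5 against ND6 had 0 called (0% of all genes by edgeR) and 9 at an unadjusted p under 0.05 (4 without B80), and ND6 against CO1 had 0 called (0%) and 15 at that p, among them Xbp1 (0.42 ± 0.14) and Manf (0.58 ± 0.20). Of all 15723 genes, 1025 and 2164 had such a p, in that order.

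In heart, ANT1 differed from the mtDNA strains in 1 gene per arm. At rest Calr was lower (0.299% of all genes were) and no member was higher (0.617% of all genes), with 10 members at an unadjusted p under 0.05 (1820 of all 15723 genes). Calr was at 138, 150 and 167 CPM in ANT1 and at 159, 205 and 279 CPM in the 18 mtDNA hearts, and 4 of 6 ANT1 libraries were below all others. The log2 difference was -0.47 ± 0.08 (adjusted p = 0.000463, edgeR). It was called against ND5 (-0.67) and ND6 (-0.46) alone, not against CO1 (-0.30, adjusted p = 0.237), and in all 7 fits with other settings. Calr lies 38.6 Mb and Herpud1 48.2 Mb from Slc25a4 on chromosome 8 (GRCm38.p6), and the alleles that the strains carry there were not examined.

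After training, Ern1 was the gene that was higher in ANT1 heart (3.45% of all genes were), none was lower (1.32%), and 3 had an unadjusted p under 0.05 (3045 of all 15723 genes). These shares of members were no larger than those of all genes. Ern1 was at 16.5, 25.4 and 35.8 CPM against 10.7, 17.4 and 25.0 CPM, with 3 ANT1 libraries above all 18 others. The difference of 0.51 ± 0.13 (adjusted p = 0.0144, edgeR) was lost when A64, A69 or A73 was left out, each time leaving 0 members (451, 242 and 186 genes in all). In heart it was called against ND6 alone (0.64), not against ND5 (0.53, adjusted p = 0.072, edgeR) or CO1 (0.36, adjusted p = 0.306). Ern1 was thus called higher in ANT1 in exercised soleus and in exercised heart. The 2 tests share 2 ANT1 mouse codes and codes of each mtDNA strain, so they are not independent.

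The ANT1 difference itself was compared between the tissues. At rest it was more negative in soleus than in heart for Dnajb9 (-0.39 ± 0.11, adjusted p = 0.0106, edgeR) and Syvn1 (-0.34 ± 0.09, adjusted p = 0.00737), as for 5.58% of all genes. No member went the other way (5.53%). In heart itself neither gene was called at rest, Dnajb9 at 0.05 and Syvn1 at -0.05. In the exercised mice Syvn1 was again called (-0.40 ± 0.09, adjusted p = 0.00182, edgeR; 5.16% of all genes), and none in the other direction (4.11%). Its difference in exercised heart was 0.09 and not called. In both arms the members' share was near or below that of all genes. The Txndc5 difference was 0.49 ± 0.19 larger in soleus at rest and did not pass the test (adjusted p = 0.0827). For the other members a difference between tissues was likewise not shown.

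No member was called for training. In soleus edgeR called 0 of 32 members, and 0% of all genes, within ANT1 (0%), ND5 (0%), ND6 (0%) and CO1 (0%), averaged over the strains (0%) and in the test of a training difference among strains (0%). At an unadjusted p under 0.05 there were 0, 4, 1, 0, 1 and 3 members in these 6 tests, and DESeq2 called none of them. Of all 13935 genes, 350, 2086, 688, 268, 536 and 984 had such a p, in the same order. The share of members in ND5 was thus no larger than that of all genes. The 4 in ND5 were Dnajb9 (0.27 ± 0.09), Herpud1 (0.29 ± 0.10), Txndc5 (-0.27 ± 0.11) and Ppib (-0.36 ± 0.15), with adjusted p from 0.17 to 0.232. Without B10, 2 members and 421 genes in all were called in ND5 soleus.

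In heart the same 6 tests called 0 of 33 members and 0% of all genes by edgeR, and none by DESeq2, with 0, 10, 0, 0, 1 and 5 members at an unadjusted p under 0.05. Of all 15723 genes, 353, 793, 680, 287, 538 and 644 had such a p, in the same order. The 10 in ND5 included Manf (-0.52 ± 0.20), Hyou1 (-0.49 ± 0.14), Calr (-0.27 ± 0.10) and Herpud1 (0.58 ± 0.28), each with the sign opposite to that of ND5 against CO1 at rest. The 2 comparisons share the non-exercised ND5 hearts. Without B80, 3 members had an unadjusted p under 0.05, and the ND5 values were -0.34 for Manf, -0.44 for Hyou1, -0.24 for Calr and 0.41 for Herpud1. Averaged over strains, 6 members had such a p without B80, and the estimates with all libraries were small, from -0.14 for Hspa5 to 0.16 for Sec61b. Among the exercised soleus mice, 12 responders and 12 non-responders by the labels, no member was called by edgeR or DESeq2 (0% of all genes by edgeR). Ern1 alone of the members had an unadjusted p under 0.05 (622 of all 13843 genes did), with -0.24 ± 0.11 in responders. Without mouse B80, an exercised mouse in soleus by its label there, 13 of 32 had such a p and none was called. The count of all genes with such a p in that fit is not given here. These 13 are therefore not read as particular to the members.

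The calls were also counted by promoter element. In non-exercised ANT1 soleus, where 22.4% of all genes were higher and 25.4% lower, 1 of 10 tested with an ERSE or ERSE-II was higher and 4 lower, and of 16 with a window and neither element 2 were higher and 9 lower. In resting heart, where 9.27% of all genes were higher in ND5 than in CO1 and 1.92% lower, 6 of 11 were higher and 1 was lower, and of the 16 others 8 were higher and none lower. Without B80 these counts were 0 of 11 and 1 of 16 (0.0316% of all genes, either direction). These counts are a description, since 6 members had no window and the elements were not tested for function.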

How the data were processed

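Poly(A) RNA was sequenced in paired ends. Per the submitters' processing notes, the authors used STAR 2.5.2b, RSEM 1.2.28 and mm10, and they deposited expected counts per gene, and FPKM values per gene, in 1 matrix per tissue. The sources used here name no annotation. Columns were matched to samples by mouse code, 24 columns were not used, and the control strain is not analysed here. Expected counts were rounded, genes with low counts were removed by filterByExpr, libraries were scaled by TMM, and all groups of a tissue were fitted together with edgeR 4.0.16 (quasi-likelihood test, Benjamini-Hochberg adjustment, R 4.3.3). FPKM served to rank genes by level only. Log2 CPM used a prior count of 2. DESeq2 1.42.0 and limma 3.58.1 were alternatives, and the scripts were tested on simulated data. All 33 members are named, with the 2 genes of smallest p from other pathway lists. The members, lists and tests were chosen with earlier results of these data known. Of 19 mouse codes found in both tissues, 6 had a correlation of deviations over 0.1 (median 0.0427), so the codes were used as a block only in an alternative.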

Additional observations from a re-analysis of the deposited data

Results flagged for a closer look

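Of 520 sets of 6 libraries (a member in a group), 36 held a library far from the other 5, or 6.92%, where chance alone marks about 1 in 20. The values below are log2 CPM.

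In soleus, mouse I62 of non-exercised ND6 was far above its group for Sdf2l1 (1.89), Pdia6 (5.67), Manf (4.68) and Xbp1 (5.54), and B70 of non-exercised ND5 for Hsp90b1 (7.93) and Hspa13 (4.22). I75 of exercised ND6 was high for Hyou1 (4.67) and Sdf2l1 (1.57), A43 of exercised ANT1 for Dnajb11 (5.32) and P4hb (7.51), E64 of non-exercised CO1 for Dnajb11 (5.11) and E50 of exercised CO1 for Pdia4 (3.55). Low libraries were A81 of exercised ANT1 for Hyou1 (3.835) and Dnajb9 (5.03), E7 of non-exercised CO1 for Dnajb9 (5.30), E12 of exercised CO1 for Dnajc3 (5.03), B98 of exercised ND5 for Txndc11 (3.14) and I84 of exercised ND6 for Sel1l (5.83).

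In heart, B80 was high for Edem1 (5.57) and low for Atf6 (5.72). A17 of exercised ANT1 was high for Dnajc3 (6.38) and Sec61a1 (5.77), and A71 of that group for Derl3 (-0.93). Other high libraries were I53 of non-exercised ND6 for Pdia4 (5.38), E50 of exercised CO1 for Sec61a1 (5.28) and B83 of exercised ND5 for Ern1 (4.47). B83 was low for Fkbp2 (2.52). I4 of exercised ND6 was low for Hsp90b1 (7.93), Syvn1 (3.90) and Ern1 (3.43), and I50 of that group for Creld2 (2.73). Among CO1 hearts the low libraries were the non-exercised E75 for Txndc11 (3.54), E64 for Canx (7.93) and E55 for Sec61b (1.40) and the exercised E56 for Derl1 (5.57). In non-exercised ND5, B5 was low for Dnajb11 (5.05).

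The ANT1 difference from the mtDNA strains was unlike in the 2 tissues, by edgeR's test of the difference itself, for Dnajb9 (-0.39, soleus minus heart) and Syvn1 (-0.34) at rest and for Syvn1 (-0.40) after training. Of all genes, 5.58% were called in this direction at rest and 5.16% after training, so the members' shares were near or below those.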

How the results depend on the processing

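Of 1262 recomputed counts of called members, 1208 stayed within 1.5 times the reported count. Many of these counts were 0 in both fits, and many refits left out a library outside the groups compared. The number that stayed is therefore no measure of how stable the counts above 0 were. Of 1753 recomputed values of single members 164 changed sign, 13 of them for a member that was called in either fit. For ANT1 against the mtDNA strains in soleus there were 22 calls at rest (6653 of all 13935 genes). They became 9 against ND6 alone (4297 genes), 9 against CO1 alone (4905 genes) and 14 with the matrix score (4674 genes). The 16 after training (6064 genes) became 7 against ND6 (4716 genes) and 6 against CO1 (4305 genes). In heart the 1 call at rest (144 of all 15723 genes) became 11 against ND5 (736 genes) and 0 against CO1 (65 genes). With DESeq2 it became 2 and with the atrial score 3. The 1 after training (751 genes) became 0 against ND5 (300 genes) and 0 against CO1 (204 genes). It became 2 without B80 (901 genes), and 2 with DESeq2 or with the atrial score. For these heart fits with DESeq2 or the atrial score the counts of all genes are not given here. ND5 against ND6 in soleus (14 calls) gave 0 with the matrix score and 0 in the exercised arm, an alternative chosen after seeing the data. ND5 against CO1 gave 6 member calls in soleus with DESeq2, whose count over all genes is not given here. In heart (20 calls) it gave 3 without B80, 3 with the atrial score, 0 with the matrix score, and 0 with both scores or in the exercised arm, the last 2 again chosen after seeing the data. The tissue difference of the ANT1 effect after training (1 call) was 2 with RLE size factors, with DESeq2 and without B80.

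Of these 13, those in heart ND5 against CO1 were Ppib (-0.00277), Sec61a1 (-0.00172), Sec61b (-0.11) and Txndc5 (-0.0143) with the matrix score, the same genes with both scores (-0.0155, -0.0245, -0.11 and -0.0380), and Herpud1 in the exercised arm (0.21). In soleus they were Ppib with the matrix score for ANT1 (0.35 at rest, 0.44 after training), and Ppib (-0.0161) and Herpud1 (0.0412) for ND5 against ND6 in the exercised arm. Apart from the covariates' construction, the cause was not tested.

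Leaving out each library in turn gave 19 to 23 calls for ANT1 in soleus at rest and 11 to 18 after training, 1 to 17 for ND5 against ND6, 0 to 15 for ND5 against CO1 and 0 to 2 for training in ND5. Over all genes these were 5930 to 6819, 5418 to 6191, 442 to 3293, 0 to 1685 and 0 to 421 calls, in the same order. In heart it gave 1 to 2 calls for ANT1 at rest, 0 to 3 after training and 3 to 24 for ND5 against CO1. Over all genes these were 68 to 242, 186 to 1155 and 5 to 3247 calls. With the mouse code as a replicate block (limma), the soleus against heart comparison called 28 members and the ANT1 effect differed between tissues for 2 at rest and 1 after training, as in the reported fit. No paired analysis was possible within a tissue because each mouse gave 1 library there. With 6 mice a group, members at low counts such as Derl3 and Sdf2l1 were measured least precisely.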
